A study of Mus musculus with 6 samples.

Results

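A set of 9 genes that encode the signaling chains of the B cell receptor (BCR), a coreceptor and surface proteins that set its threshold was followed in resting and TLR9-stimulated B cells: Cd79a, Cd79b, Cd81, Cd22, Fcgr2b, Cd72, Siglecg, Ms4a1 and Cd37. They were taken by gene symbol, with earlier results of these data known, and all 9 were present among the 23420 genes listed and among the 11233 genes tested. B cells were purified with magnetic beads from spleens of 7 to 11 week old WT BALB/c mice and cultured for 4 hours at 10 M cells per mL with 10 μg/mL of CpG DNA (CpG ODN 1826, a synthetic TLR9 agonist) or left unstimulated. Each condition had 3 samples carrying the numbers 1 to 3 and coming from 3 mice. Numbers 1 and 2 were labeled female and number 3 male. All mice were wild type. The mRNA was sequenced and the values are log2 CPM, in which CPM is the read count of a gene scaled to the same total in every sample.

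The BCR is a membrane immunoglobulin that has almost no cytoplasmic tail, and it signals through a heterodimer of CD79A (Igα) and CD79B (Igβ), whose tyrosine motifs are phosphorylated by Src family kinases and then dock the kinase SYK. A coreceptor complex that holds the tetraspanin CD81 and the complement receptor CD21 (Cr2) lowers the amount of antigen needed. A group of inhibitory receptors works against it: CD22 and Siglec-G bind sialic acids, CD72 binds CD100 (Sema4d), and FcγRIIB (Fcgr2b) binds immune complexes, and each recruits a phosphatase to the receptor. CD20 (Ms4a1) and the tetraspanin CD37 are membrane proteins of mature B cells and known antibody targets.

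Promoter sequences are shown for 4 of the genes, Cd79a and Cd22, which fell after CpG, and Cd81 and Cd72, which rose, so that the start regions of genes of opposite direction can be read side by side. Each is the 250 bases before the start of transcription in RefSeq (GRCm38.p6), written 5′ to 3′ on the strand of the gene, with matches to the searched motifs in capitals.
Cd79a, chr7:24897247-24897496, plus strand: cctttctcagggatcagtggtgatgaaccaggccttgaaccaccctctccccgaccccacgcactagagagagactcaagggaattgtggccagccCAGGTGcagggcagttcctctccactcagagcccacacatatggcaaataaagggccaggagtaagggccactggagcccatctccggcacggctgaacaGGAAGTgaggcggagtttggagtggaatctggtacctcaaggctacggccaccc
Cd22, chr7:30879029-30879278, minus strand: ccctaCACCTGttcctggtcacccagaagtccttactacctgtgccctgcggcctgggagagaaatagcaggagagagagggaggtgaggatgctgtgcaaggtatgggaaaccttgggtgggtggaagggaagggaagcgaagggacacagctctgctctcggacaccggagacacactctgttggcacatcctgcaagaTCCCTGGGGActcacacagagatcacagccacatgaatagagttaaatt
Cd81, chr7:143052500-143052749, plus strand: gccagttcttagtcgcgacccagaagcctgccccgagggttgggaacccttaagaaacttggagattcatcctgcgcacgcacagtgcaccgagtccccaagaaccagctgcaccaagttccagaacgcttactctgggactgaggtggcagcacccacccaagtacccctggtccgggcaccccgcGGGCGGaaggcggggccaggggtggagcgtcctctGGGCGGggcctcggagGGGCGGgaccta
Cd72, chr4:43454627-43454876, minus strand: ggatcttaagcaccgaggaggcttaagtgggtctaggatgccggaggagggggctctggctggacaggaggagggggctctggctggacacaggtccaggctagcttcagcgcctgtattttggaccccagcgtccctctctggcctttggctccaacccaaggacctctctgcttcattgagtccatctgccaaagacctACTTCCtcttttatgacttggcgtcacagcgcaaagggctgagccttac

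Of the 9 genes, 7 were matched in the RefSeq promoter table, and Cd79b and Ms4a1 were not. Both strands were searched for 8 motifs, and no match overlapped another. The E-box, which E proteins bind, was searched as CAGGTG. Factors of the ETS family bind cores such as GGAAGT, and the zinc finger factor SP1 binds the GC box, searched as GGGCGG. The octamer of OCT factors was searched as ATTTGCAT, the AP-1 site as TGANTCA and the TATA box as TATAAA, and the EBF and NF-kB sites by their consensus. Positions count back from -1, the base before the RefSeq start. This start differs from the GENCODE gene start used for the gene spans given below. Windows of Cd22, Fcgr2b and Cd37 lie inside those spans, and the others reach past the gene start. The Cd79a window held an E-box at -154 and an ETS core at -54, which occur in 17.2% and 19.7% of the 32817 windows of the same length. The Cd22 window held a match to the EBF consensus at -49, which is found in 0.78% of windows, and an E-box on the other strand at -245. The Cd81 window held the GC box at -63, -28 and -12 (in 32.7% of windows at least 1 time) and 16 CG dinucleotides, against a median of 6 over all windows. The Cd72 window held an ETS core on the other strand at -49. The ETS core was thus in windows of genes of both directions. Windows of Fcgr2b and Cd37 held an ETS core as well. That of Cd37, which fell, also held the GC box at -53 and an E-box on the other strand at -175. The GC box was thus also in windows of genes of both directions. Siglecg had no searched motif, and the octamer, AP-1, TATA and NF-kB letters were in none of the 7. A match is a run of letters and not a measured site. Sites that differ from the searched letters were not looked for, so a window without a match can still hold a site.

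The samples had B cell values. All 9 listed B cell markers that are not among the 9 genes averaged above the level of 10 reads, as did 0 of 7 T cell, 0 of 4 NK cell, 1 of 4 plasmacytoid dendritic cell and 4 of 10 myeloid markers. Summed CPM of the myeloid list was between 10.3 and 16.4 in stimulated and between 7.97 and 15.6 in unstimulated samples, and that of the B cell list between 11570 and 13750 and between 15320 and 16700. Erythroid genes were present and were highest in replicate 2 of both groups, with 4913 and 3846 CPM in sum against 384 to 612 in the other samples. Plasma cell markers summed to between 2649 and 2917 CPM in stimulated and between 1928 and 2209 CPM in unstimulated samples, with Irf4 rising and Igj and Sdc1 falling. The part of other cells in the results below was not tested. In bulk RNA, fewer cells of a type and less RNA per cell cannot be told apart, and quantile normalization by the authors removes any change in total RNA.

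CpG changed the transcripts of all 9 genes, and not in 1 direction. Of these, 6 fell (Cd79a, Cd79b, Cd22, Fcgr2b, Siglecg and Cd37) and 3 rose (Cd81, Cd72 and Ms4a1), at a false discovery rate (FDR) under 0.05, by limma with p values adjusted over all genes tested after Benjamini and Hochberg. SE stands for the standard error of a log2 fold change below. Of all tested genes, 36.7% fell and 37.6% rose by the same rule, so a call in itself was common. Counts by this rule in the other gene lists below are to be read beside these shares. With a log2 fold change (log2FC) beyond 1 as well, 5 of the 9 fell and 1 rose, against 15.3% and 15.8% of tested genes. With samples centered on B cell markers, a combination chosen after seeing the data, 4 fell and 3 rose beyond 1. The share of all tested genes was not counted with this centering, and the shares given before do not apply to it. Stimulated and unstimulated samples did not overlap in any of the 9 genes, as in 77.7% of all tested genes. The median log2FC of the 9 was -1.17, and that of all tested genes 0.0033. The limma model was used for each gene because the authors used voom and limma and the values are log2 CPM, not counts. An exact permutation test of 3 against 3 samples cannot give a p under 0.1.

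**Figure D1:**
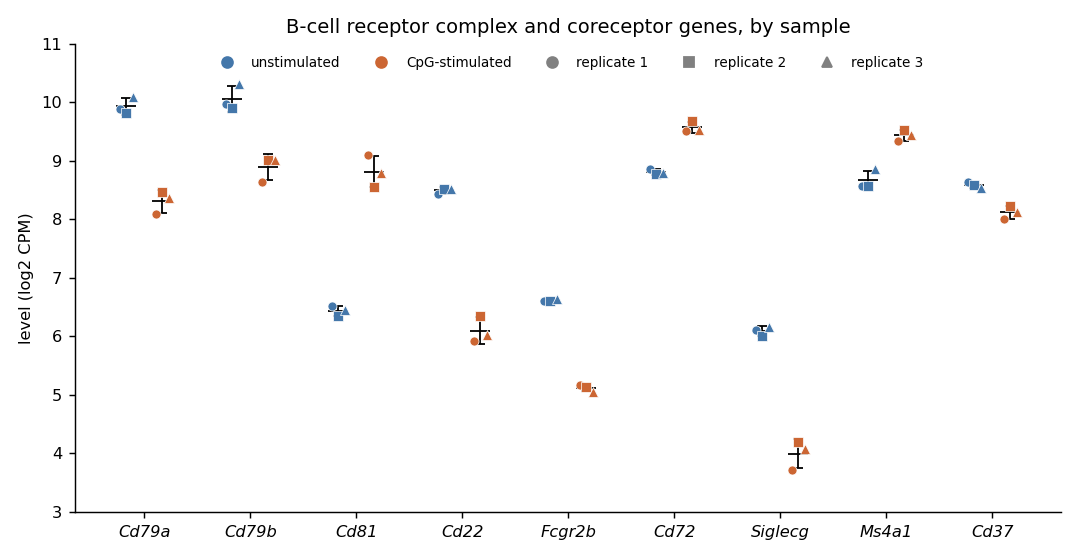
Levels of the 9 genes in log2 CPM (vertical axis) in each unstimulated (blue) and CpG-stimulated (orange) sample, with the mean and SD of 3 samples in black and the marker shape giving the replicate number. In each gene the groups are apart, and the stimulated samples are higher in Cd81, Cd72 and Ms4a1 and lower in the other 6.

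The signaling chains of the receptor fell together but not equally. Cd79a, which encodes Igα, lies on chromosome 7 of GRCm38 from 24897381 to 24902197 (ENSMUSG00000003379.7). Its level was 9.88, 9.82 and 10.10 log2 CPM in unstimulated samples 1 to 3 and 8.09, 8.47 and 8.37 in stimulated samples 1 to 3. All stimulated samples were lower, sample 1 most. Cd79a decreased to 32.4% of the unstimulated level, a change of -1.62 in log2 CPM (SE 0.11, Benjamini-Hochberg FDR = 4.14e-07 in limma).

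Cd79b, which encodes Igβ, is on chromosome 11 from 106311341 to 106314762 (ENSMUSG00000040592.11). It had 9.97, 9.90 and 10.31 log2 CPM without CpG and 8.65, 9.02 and 9.02 with it, again with no overlap and with stimulated sample 1 lowest. It decreased to 44.6%, a log2FC of -1.17 (SE 0.13, Benjamini-Hochberg FDR = 1.51e-05 in limma). The interval of this change, from -1.45 to -0.88 at 95% confidence, includes changes smaller than 1. Per transcript length, Cd79b and Cd79a had the highest levels of the 9 in unstimulated cells.

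Since the chains are made into 1 heterodimer, their ratio was compared in each sample. The log2 ratio of Cd79a to Cd79b was -0.091, -0.074 and -0.215 in unstimulated and -0.560, -0.549 and -0.648 in stimulated samples. Every stimulated sample had relatively less Cd79a. The ratio fell by 0.459 on the log2 scale, with an exact two-sided permutation p of 0.1, the smallest that 3 against 3 samples can give. With samples paired by number the exact two-sided p was 0.25. The transcript lengths, 1457 and 1431 bases for the longest coding transcripts in GENCODE M21, are nearly the same, and per length the ratio was -0.153 ± 0.077 without and -0.612 ± 0.0543 with CpG (mean ± SD, n = 3 in each group).

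Cd81 showed the opposite change and the largest increase of the 9. CD81 is the tetraspanin of the coreceptor complex, and its gene spans 143052739 to 143067934 on chromosome 7 (ENSMUSG00000037706.17). Its level was 6.51, 6.35 and 6.45 log2 CPM in unstimulated and 9.10, 8.56 and 8.80 in stimulated samples. Stimulated samples were all far above the others, and they were spread over 0.54 with sample 1 on top. Cd81 increased 5.21-fold, a log2FC of 2.38 (SE 0.12, Benjamini-Hochberg FDR = 7.6e-08 in limma), higher than in 97.9% of tested genes. An antisense transcript, R74862, overlaps Cd81 over 948 bases and was at -0.79, -0.76 and -0.14 without and 1.74, 1.69 and 1.48 with CpG. The kit was stranded, whether the counting used the strand is not given in the sources used here, and R74862 had far fewer reads than Cd81 in every sample.

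The complement receptor of the complex did not follow Cd81. Cr2 was at 7.44, 7.41 and 7.28 log2 CPM without and 7.19, 7.35 and 7.34 with CpG, and the groups overlapped. Its log2FC of -0.08 did not pass (Benjamini-Hochberg FDR = 0.305 in limma, 95% interval from -0.24 to 0.07). The log2 ratio of Cd81 to Cr2 thus went from -0.941 ± 0.115 to 1.52 ± 0.355 (mean ± SD, n = 3 in each group), without overlap. Of 10 further genes listed for immunoglobulin and the coreceptor, 5 were tested, of which 3 fell, 0 rose and 2 did not pass, with a median log2FC of -0.50. Those that fell were Ptprc (log2FC -0.55), the receptor phosphatase CD45 that keeps Src family kinases active, Cd24a (-0.51) and Cd38 (-0.50). Ifitm1, which encodes a further protein of the complex, had a log2FC of 1.21 at FDR 0.069 and passed with the replicate number as a block (FDR 0.0086). Its level was low, at -1.86, 0.14 and -0.50 log2 CPM without and -0.41, 0.97 and 0.83 with CpG, and the groups overlapped. The value of 10 reads is -0.76. Immunoglobulin constant genes were not analysed here.

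**Figure D2:**
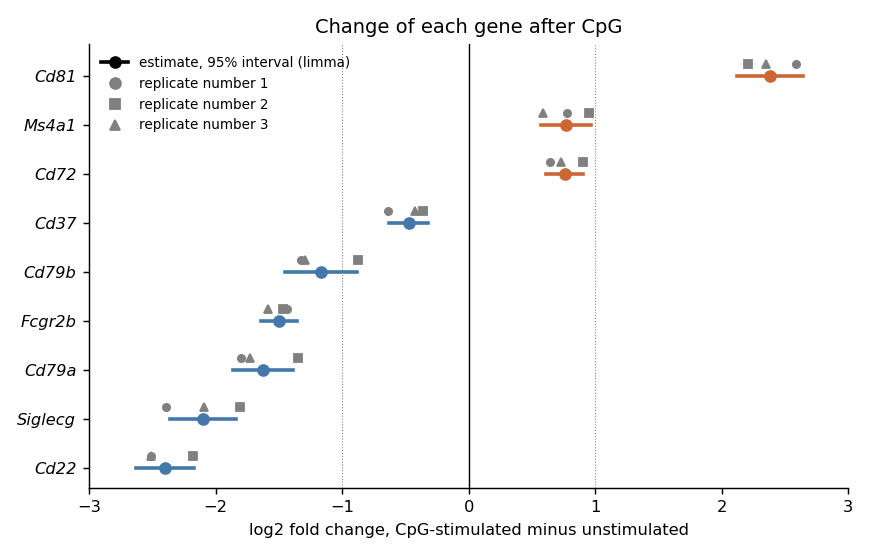
The log2 fold change of each gene (horizontal axis, CpG-stimulated minus unstimulated) with its 95% interval from limma, and in grey the differences between samples of the same replicate number. Values run from -2.40 for Cd22 to 2.38 for Cd81, and dotted lines mark a log2FC of -1 and 1.

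The inhibitory receptors split, with 3 that fell and 1 that rose. Cd22 had the largest decrease of the 9 genes. It encodes a sialic acid binding lectin of B cells and lies on chromosome 7 from 30865402 to 30880342 (ENSMUSG00000030577.14). The window shown above with the EBF letters lies inside this span. Unstimulated samples had 8.43, 8.53 and 8.53 log2 CPM and stimulated samples 5.92, 6.35 and 6.02. The unstimulated samples lay within 0.10 of each other, and every stimulated sample was at least 2 lower. Cd22 decreased to 19.0% of its unstimulated level (log2FC -2.40, SE 0.10, Benjamini-Hochberg FDR = 4.14e-08 in limma), and only 2.42% of tested genes had a lower log2FC.

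Siglecg, whose product is the other B cell lectin of this kind, is also on chromosome 7, from 43408204 to 43418358 (ENSMUSG00000030468.12). It went from 6.11, 6.01 and 6.16 log2 CPM to 3.72, 4.20 and 4.07, with stimulated sample 1 lowest. This was a decrease to 23.4%, a log2FC of -2.10 (SE 0.12, Benjamini-Hochberg FDR = 1.6e-07 in limma). The intervals of Cd22 (-2.63 to -2.17) and Siglecg (-2.36 to -1.84) overlapped. Of the 4 inhibitory receptors, Siglecg had the lowest level per length in both conditions.

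Fcgr2b encodes the Fc receptor of B cells for IgG complexes, on chromosome 1 from 170958617 to 170976547 (ENSMUSG00000026656.15). Its replicates were closest together, at 6.60, 6.60 and 6.64 log2 CPM without and 5.16, 5.13 and 5.05 with CpG. It decreased to 35.4% (log2FC -1.50, SE 0.06, Benjamini-Hochberg FDR = 4.21e-08 in limma). Part of its coding sequence is nearly identical to that of Fcgr3, an activating Fc receptor of myeloid cells, so reads from that part are uncertain. Fcgr3 itself was at -3.17, -3.18 and -3.66 without and -5.45, -1.52 and -3.66 with CpG, and the value of 3 reads is -2.34.

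Cd72 was the exception. It encodes a C-type lectin that binds CD100 and has an inhibitory tail, on chromosome 4 from 43446462 to 43454628 (ENSMUSG00000028459.11). Its level was 8.87, 8.78 and 8.80 log2 CPM in unstimulated and 9.52, 9.68 and 9.53 in stimulated samples. All stimulated samples were higher, and both groups were tight. Cd72 increased 1.69-fold (log2FC 0.76, SE 0.07, Benjamini-Hochberg FDR = 2.98e-06 in limma). Its span overlaps Tesk1 on the opposite strand over 1603 bases, which was at 6.78, 6.74 and 6.65 without and 6.94, 7.18 and 6.92 with CpG, fewer reads than Cd72 in every sample.

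The sum of the 4 inhibitory receptors changed less than its make-up. Together they had 978 ± 8.67 CPM in unstimulated and 883 ± 61.8 CPM in stimulated samples (mean ± SD, n = 3 in each group), 0.903 of the unstimulated sum, without overlap. Cd72 made up 47.8%, 45.2% and 45.2% of this sum without CpG and 87.0%, 85.8% and 86.5% with CpG. Cd22 went from 36.9% ± 1.52 to 7.78% ± 0.714 of the sum, Fcgr2b from 10.0% ± 0.095 to 3.94% ± 0.296 and Siglecg from 6.99% ± 0.315 to 1.82% ± 0.217 (SD, n = 3 each). Summed without Cd72, the rest fell from 527.5 ± 14.8 to 119.9 ± 13.6 CPM. These shares are of normalized CPM and are not corrected for transcript length.

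**Figure D3:**
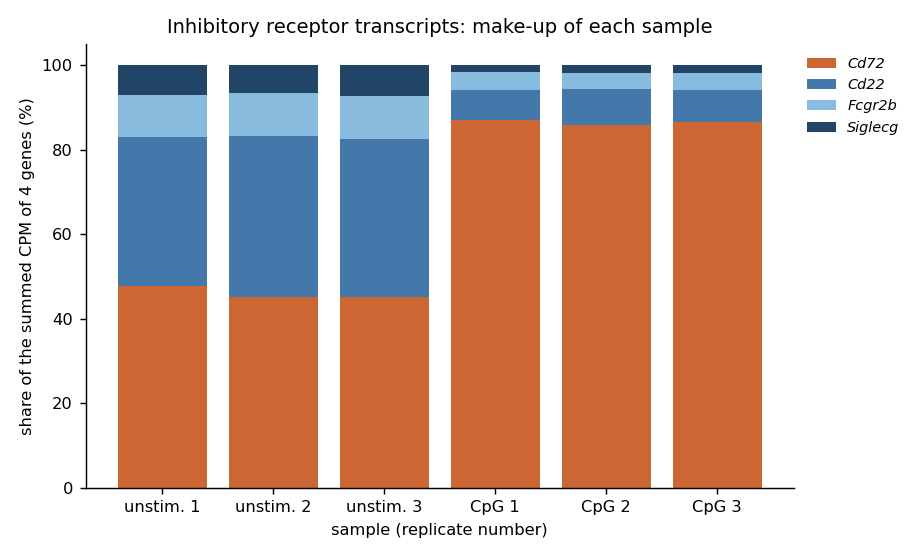
Share of each of 4 inhibitory receptor genes in their summed CPM (vertical axis, percent) in each sample. Cd72 holds 45.2% to 47.8% in unstimulated and 85.8% to 87.0% in stimulated samples.

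CD20 and CD37, the remaining membrane proteins, moved in opposite directions. Ms4a1, the gene of CD20, lies on chromosome 19 from 11249675 to 11266241 (ENSMUSG00000024673.9) and rose. It had 8.57, 8.58 and 8.86 log2 CPM without and 9.34, 9.53 and 9.45 with CpG, without overlap, although unstimulated sample 3 stood above its group. The increase was 1.71-fold (log2FC 0.77, SE 0.09, Benjamini-Hochberg FDR = 2.19e-05 in limma). An antisense gene spans Ms4a1 entirely, 4930526L06Rik, and was under the value of 3 reads in all samples. Antisense genes that overlap Cd22 and Fcgr2b in the annotation were not analysed here.

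Cd37, a tetraspanin like Cd81, is on chromosome 7 from 45233632 to 45239115 (ENSMUSG00000030798.15). It had 8.64, 8.59 and 8.55 log2 CPM without and 8.01, 8.23 and 8.12 with CpG. Stimulated samples were lower in each case, by the smallest amount of the 9 genes: Cd37 decreased to 72.0% (log2FC -0.47, SE 0.07, Benjamini-Hochberg FDR = 0.000137 in limma). This was the 1 call that depended on scaling. The 9 B cell markers fell by 0.404 on average, but not alike, since 5 fell, 2 rose (Fcer2a by 0.83 and Cxcr5 by 0.45 on the log2 scale) and 2 did not pass. With samples centered on them Cd37 had a log2FC of -0.0705 and did not pass (FDR = 0.40). The same centering moved the log2FC of Cd72 from 0.76 to 1.16, of Ms4a1 from 0.77 to 1.18 and of Cd79b from -1.17 to -0.76, all still called. The tetraspanins therefore moved apart, the log2 ratio of Cd81 to Cd37 going from -2.16 ± 0.0791 to 0.699 ± 0.383 (mean ± SD, n = 3 in each group).

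Because the genes differ in transcript length, their order was read from log2 CPM per kb of the longest coding transcript. In unstimulated cells Cd79b (9.55) and Cd79a (9.39) stood at the top, and their samples overlapped. Cd72 (7.45), Cd37 (7.25), Ms4a1 (7.05), Cd22 (6.51), Cd81 (5.82), Fcgr2b (4.79) and Siglecg (4.73) followed. Of these neighbours, Cd37 and Ms4a1 overlapped, as did Fcgr2b and Siglecg, and the others did not. After CpG the top was shared by Cd79b (8.38), Cd72 (8.21) and Cd81 (8.20), each overlapping its neighbour. Ms4a1 (7.82) and Cd79a (7.77) overlapped below them, and Cd37 (6.77), Cd22 (4.11), Fcgr2b (3.29) and Siglecg (2.64) were each apart. Cd81 moved from the seventh to the third place and Cd79a from the second to the fifth. The lengths are those of the annotation, and the transcripts used by these cells were not measured.

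**Figure D4:**
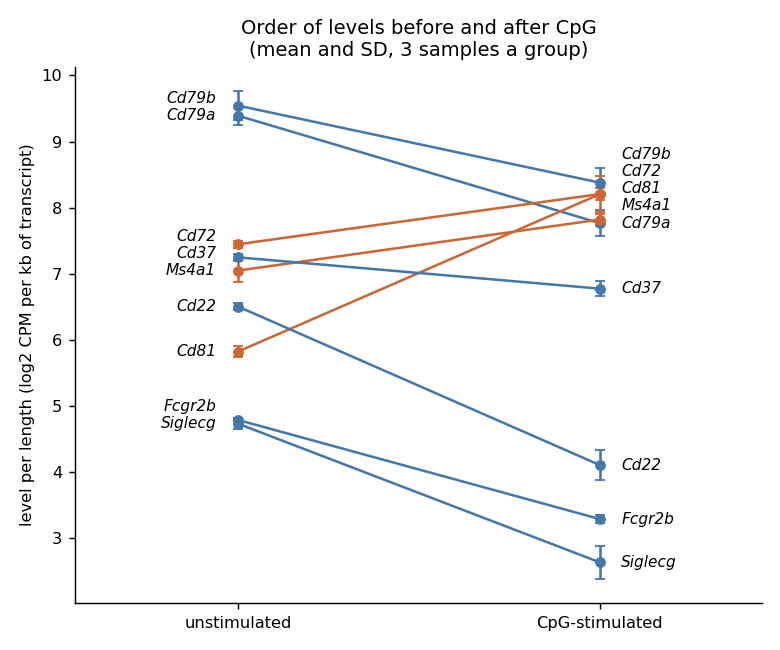
Levels per transcript length (vertical axis, log2 CPM per kb) of the 9 genes in unstimulated and CpG-stimulated cells, with the mean and SD of 3 samples. Genes that rose are orange and genes that fell blue, and lines cross as Cd81, Cd72 and Ms4a1 reach the levels of the CD79 chains.

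Summed over the 9 genes, the level fell from 3920 ± 317 to 3114 ± 139 CPM (mean ± SD, n = 3 in each group), without overlap. The make-up of the sum changed. Cd79a fell from 25.0% to 10.2% of the sum and Cd79b from 27.4% to 15.4%. Cd81 went from 2.22% to 14.8%, and Cd72 (11.5% to 24.5%) and Ms4a1 (10.4% to 22.3%) also gained. The share of Cd37 overlapped between the groups (9.92% ± 1.03 and 8.94% ± 0.309, SD, n = 3).

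The kinases and adaptors next to the receptor mostly fell. Of 25 listed genes, all tested, 18 fell, 3 rose and 4 did not pass, with a median log2FC of -0.61 beside 0.0033 for all tested genes. Syk, the kinase that docks on phosphorylated CD79 chains, went from 9.86, 9.65 and 9.97 to 7.87, 8.11 and 8.25 log2 CPM, a log2FC of -1.75 (SE 0.11, Benjamini-Hochberg FDR = 2.8e-07 in limma). Lyn, the Src family kinase that phosphorylates both CD79 and the inhibitory receptors, moved by only -0.19 (FDR = 0.0267). Blnk (log2FC 0.63), the adaptor downstream of SYK, rose, as did Ptpn11 (0.40), the phosphatase SHP-2, and Grb2 (0.35), an adaptor.

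The phosphatases that the inhibitory receptors recruit differed. Inpp5d, which encodes SHIP-1, the lipid phosphatase used by FcγRIIB, went from 10.10, 9.94 and 10.00 to 6.93, 7.46 and 7.09 log2 CPM, with no overlap. Its log2FC of -2.85 (SE 0.12, Benjamini-Hochberg FDR = 3.57e-08 in limma) was the lowest of the list. Dok3 (-2.76), an inhibitory adaptor that works with SHIP-1, was next. Ptpn6, which encodes SHP-1, the phosphatase of CD22 and CD72, was at 8.02, 7.86 and 8.12 log2 CPM without and 7.81, 8.25 and 8.16 with CpG, which overlap, and its log2FC of 0.07 did not pass (FDR = 0.564, 95% interval from -0.18 to 0.33).

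A further list of 6 genes held Sema4d, the gene of the CD72 ligand, and genes of sialic acid enzymes. Of these, 5 fell and 1 did not pass, with a median log2FC of -1.62. Of all tested genes 36.7% fell, and their median log2FC was 0.0033. St6gal1, the sialyltransferase that makes the sialic acid linkage bound by CD22, had a log2FC of -2.06 (SE 0.09), from 7.33, 7.32 and 7.51 to 5.16, 5.40 and 5.42 log2 CPM. Cmah (-2.54), the hydroxylase that makes the sialic acid form preferred by mouse CD22, fell further, and Siae (-1.96), a sialic acid esterase, also fell. Sema4d, which encodes the CD72 ligand CD100, had a log2FC of -1.28 (SE 0.08, Benjamini-Hochberg FDR = 2.45e-07 in limma), whereas Cd72 rose.

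**Figure D5:**
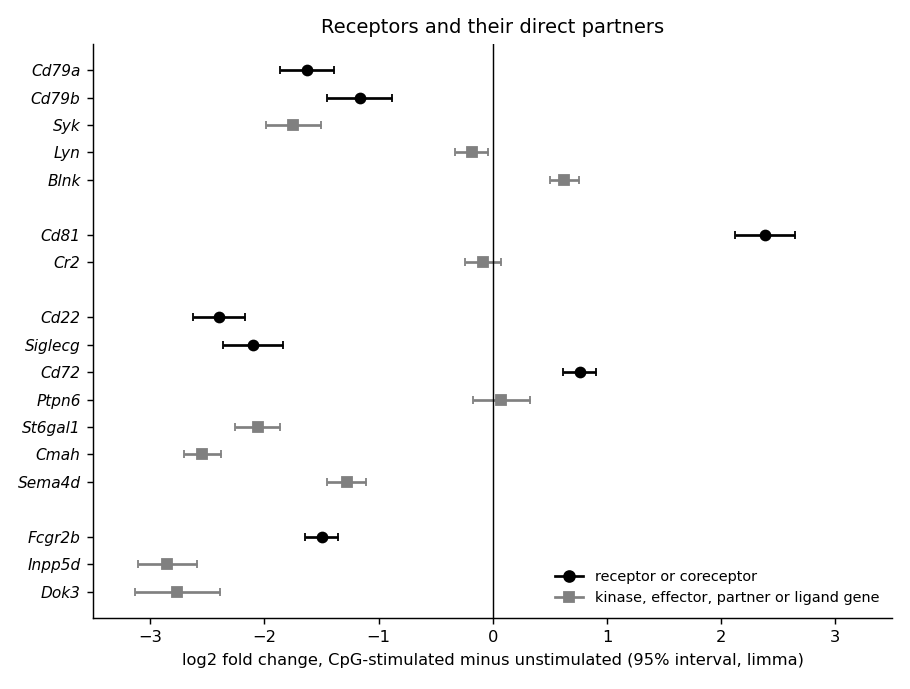
Log2 fold changes with 95% intervals from limma (horizontal axis) of the receptors (black circles) and of genes for their kinases, effectors, partners and ligands (grey squares), grouped by receptor. Cr2 lies near 0 beside Cd81, and Inpp5d and Dok3 have lower values than Fcgr2b.

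Transcription factors known from the CD79 promoters were also lower for the most part. Of 13 listed genes, 12 fell and 1 rose, beside 36.7% and 37.6% of all tested genes. With a log2FC under -1 as well, 5 fell, and the median log2FC of the list was -0.85. Ets1 (log2FC -2.56), a factor of the ETS family, fell most, then Runx1 (-2.08) and Pou2af1 (-1.69), the octamer coactivator, while Pou2f2 (1.49), which encodes the octamer factor OCT2, rose. No test links these changes to the receptor genes.

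Other inhibitory or related receptors of leukocytes moved both ways. Of 15 listed genes 11 were tested, of which 5 rose, 4 fell and 2 did not pass. Fcrl5 (log2FC 2.39), Lilrb4 (1.57) and Fcrl1 (1.31) rose most. Lilrb3, the listed symbol for Pirb (-3.45), Fcrla (-2.80) and Ceacam1 (-1.42) fell most. Lilrb3 was near the level of 3 reads in stimulated samples (-0.89, -2.85 and -2.66), so the size of its change is uncertain. The list as a whole had no single direction, with a median log2FC of -0.32.

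The genes with the most similar profiles were found by the root mean square (RMS) difference over the 6 samples, each profile centered on its own mean. They were Rasgrp1 for Cd79a (RMS difference 0.0479 log2 CPM), Pvrl1 for Cd79b (0.0586), Plxnc1 for Cd81 (0.0675) and Mtss1 for Cd22 (0.0575). Rnf181 was nearest to Fcgr2b (0.0471), Tcn2 to Siglecg (0.0395), Polr1c to Cd72 (0.0214), Lsp1 to Ms4a1 (0.0388) and Spin1 to Cd37 (0.0310). This measure takes in the size of the change between the groups, and it says nothing of shared function or control.

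Most of the 9 genes had their extremes in the same samples, which differed by group. Stimulated sample 1 was the lowest of its group in 7 of the 9 genes, against 32.7% of tested genes, and sample 2 the highest in 7, against 35.1%. Unstimulated sample 2 was the lowest of its group in 6, against 34.5%, and sample 3 the highest in 5, against 34.3%. The difference between samples of the same number was smallest for number 2 in Cd79a (-1.35, against -1.80 and -1.73), Cd79b (-0.88, against -1.33 and -1.29), Cd22 (-2.17, against -2.51 and -2.51), Siglecg (-1.81, against -2.39 and -2.09), Cd37 and Cd81. Cd72 and Ms4a1, which rose, had their largest difference in number 2 (0.90 and 0.95). Fcgr2b had its smallest difference in number 1 (-1.44, against -1.47 and -1.59). Number 2 was also where erythroid genes were highest, and their part was not tested. The direction was the same in all 3 numbers for each of the 9 genes.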

How the data were processed

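The 6 samples, 3 with and 3 without CpG, were grouped by their titles. Paired 75-base reads were aligned by the authors to mm10 with STAR (2.6.1a), counted per gene with featureCounts (Subread 2.0.1), and put through quantile normalization and voom; Trim Galore 0.6.5 and FastQC 0.11.7 are named in the submitters' processing notes. The deposited values are log2 CPM with an offset of 0.5 reads, and are not counts. The most common value, -5.152, was taken as a gene without reads, which corresponds to a common library size of 17.8 M reads and places 10 reads at -0.76 and 3 reads at -2.34. Depth of single samples is not in the values.

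The groups were tested by limma 3.58.1 under R 4.3.3 (functions lmFit and eBayes with a variance trend) on the deposited values of the 11233 genes above 10 reads in at least 3 samples, with Benjamini-Hochberg adjustment over all of them and FDR under 0.05 as the call. Intervals are limma's, at 95%. P values set the difference between the groups against the spread between these samples, which limma moderates across genes. The procedure was also run on simulated data. Those had independent samples, no shift by replicate number (described below) and a small share of changed genes. These data differ, so the run does not show how well SE and FDR hold here. Members, gene lists and tests were chosen with earlier results of these data known. Named genes are the 9 genes, Cr2, Syk, Lyn, Ptpn6, Inpp5d, Sema4d and St6gal1, up to 3 called genes in each direction per list, the gene with the nearest profile, and marker genes that bear on a member; others were named after their values were seen. Immunoglobulin genes Ighm and Ighd, also meant to be named, were not analysed here, and 1 further gene of the rule is not reported here and was taken out of the lists. Symbols were matched through RefSeq synonyms (Lilrb3, Lilrb4, Sfpi1, Emr1 and Igj are older symbols).

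Replicate numbers were checked for pairing. Deviations from group means correlated at 0.435, 0.224 and 0.300 in samples of the same number and between -0.281 and 0.0279 otherwise. The values carry a shift per gene by number, which can by itself give such correlations, so the check cannot show that the numbers pair samples. Samples of the same number share the labeled sex (numbers 1 and 2 female, number 3 male), and the labels do not say whether they share a mouse. The shift by number was read from genes of low values. In 2321 genes below 1 read in all samples, values equal within 0.0015 were found in 83.0% to 90.4% between groups for the same number and in 17.4% to 22.6% for other numbers. The cause of this shift was not tested. Unless a block is named, the limma results were fitted without the number, so their SE, intervals and FDR leave any pairing out. A model with the number as a block was an alternative, as were the filter on low values, log2(CPM + 1), no variance trend, centering on the median or on B cell markers, thresholds of size, and each sample left out.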

Additional observations from a re-analysis of the deposited data

How the results depend on the processing

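Of 117 log2FC values of the 9 genes with another setting, 116 had the same direction and stayed called. The exception was Cd37, at -0.0705 with samples centered on the B cell markers. Leaving out each sample in turn gave log2FC values from -1.71 to -1.51 for Cd79a, -1.25 to -1.04 for Cd79b, 2.24 to 2.51 for Cd81, -2.53 to -2.31 for Cd22, -1.52 to -1.47 for Fcgr2b, 0.71 to 0.79 for Cd72, -2.20 to -1.96 for Siglecg, 0.72 to 0.87 for Ms4a1 and -0.53 to -0.42 for Cd37. The replicate block changed no call among the 9 genes (for Cd79b, Benjamini-Hochberg FDR = 2.21e-08 in limma), and the paired change of the Cd79a to Cd79b ratio was -0.46, as without pairing, with an exact permutation p of 0.25 in place of 0.1. With the block 1 gene of the immunoglobulin and coreceptor list rose, Ifitm1.

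With a log2FC over 1 in size as a further threshold, 1 of the 9 genes was counted as higher, in the immunoglobulin and coreceptor list 0 as lower, in the other MS4A list 0 as lower, in the proximal signaling list 0 as higher and 7 as lower, and of the CD79 promoter factors 5 as lower. With 0.5, counts became 0 lower in the other MS4A list and 1 higher in the signaling list. Fewer genes pass by construction.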

Other observations

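Relatives of the tetraspanins and of CD20 gave values beside those of Cd81, Cd37 and Ms4a1. Of 15 other tetraspanins, all tested, 6 rose, 4 fell and 5 did not pass, with a median log2FC of 0.08. Tspan2 (log2FC 2.35), Tspan33 (1.88) and Cd82 (1.21) rose most, and Tspan13 (-2.52), Tspan14 (-2.20) and Tspan17 (-2.18) fell most. Cd53, a tetraspanin of leukocytes, was at 8.93 log2 CPM without and 8.83 with CpG and did not pass (Benjamini-Hochberg FDR = 0.32 in limma).

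Of 13 other MS4A genes, 12 were listed and 5 tested, of which 3 rose, 1 fell and 1 did not pass. Ms4a6c (log2FC 1.11), Ms4a4c (1.03) and Ms4a4b (0.67) rose like Ms4a1, and Ms4a6b (-0.35) fell. Ms4a7 was at the value of a gene without reads in the mean of the unstimulated samples and at -1.19 in the mean of the stimulated samples, and was not tested.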
